A study of Mus musculus with 12 samples.

Results

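The mitosis genes are 53 genes whose products carry a cell from the end of DNA replication through division, from the mitotic kinases to the ring that cuts the daughter cells apart. A member was read from a probe set, the group of array probes that measures 1 transcript, annotated to its symbol alone, and a gene with more than 1 such probe set was read from the brightest. By that rule 52 of the 53 genes were measured, among 19938 genes in all, and the cyclin gene Ccnb1 was not analysed here. Values are log2 intensities, so a difference of 1 is a doubling, and every difference is taken between arrays for 1 gene.

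The cells were adult mouse bone marrow of the strain labelled C57/BL6/C3H, taken after the donors received 5-Fluorouracil, a drug that kills dividing cells and so enriches for stem and progenitor cells. All 4 groups were stimulated in culture for 48 h, overlaid on irradiated (40 Gy) GFP+E86 producer cells with cytokines and protamine sulfate (5 µg/ml), grown for another 48 h and sorted for GFP, and RNA was taken 96 h after transduction. MIG is the empty retroviral vector and the control. CALM-AF10 is a leukaemia fusion of the clathrin adaptor CALM with AF10, a partner of the histone methyltransferase DOT1L. CALM-AF10 ΔOM-LZ, written ΔOM-LZ here, lacks the OM-LZ stretch through which AF10 binds DOT1L. CALM(400-648)+AF10 (677-758), the minimal fusion, joins a fragment of each protein. Each construct had 3 arrays, labelled biological replicates, and whether arrays of the same number share a donor pool or a day is not stated in the labels. The measured cells were a sorted mixture from short cultures, with no animal, cell number or stage of the cell cycle given per array.

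In a dividing cell the transcripts of these genes rise after DNA replication and fall as the cell divides, so in a bulk culture their level follows the share of cells in G2 and mitosis. Cyclin A and cyclin B activate the kinase Cdk1, the Polo and Aurora kinases build the spindle, and the spindle checkpoint holds the anaphase-promoting complex until every chromosome is attached. Progenitors of bone marrow divide fast under cytokines and stop as they mature. In bulk samples fewer dividing cells and less transcript per dividing cell cannot be told apart.

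Many mitotic promoters carry a short element called the cell cycle genes homology region (CHR), which binds the MuvB complexes that hold these genes silent at rest and switch them on in G2, often beside a CCAAT box bound by NF-Y. RefSeq promoters (build GRCm38.p6, 250 bases before to 50 after a transcription start) were matched by symbol for 43 of the 52 members, all but Aurkb, Ccna2, Cdc25c, Dlgap5, Foxm1, Incenp, Kif20a, Smc4 and Tpx2. They are shown here for the 5 members with the highest mean array values among those holding both elements in 1 window, an order that served only to choose them, read 5′ to 3′ along the gene's strand. Capitals mark each match on either strand, to the CHR as TTTGAA, or in its variant form TTCGAA, and to CCAAT.
Ccnb2: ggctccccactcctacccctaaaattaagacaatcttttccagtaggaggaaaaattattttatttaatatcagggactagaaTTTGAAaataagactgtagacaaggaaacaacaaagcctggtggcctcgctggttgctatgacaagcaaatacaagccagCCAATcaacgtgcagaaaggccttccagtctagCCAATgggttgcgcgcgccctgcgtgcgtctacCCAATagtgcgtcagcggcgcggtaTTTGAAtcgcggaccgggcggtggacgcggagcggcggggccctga
Mki67: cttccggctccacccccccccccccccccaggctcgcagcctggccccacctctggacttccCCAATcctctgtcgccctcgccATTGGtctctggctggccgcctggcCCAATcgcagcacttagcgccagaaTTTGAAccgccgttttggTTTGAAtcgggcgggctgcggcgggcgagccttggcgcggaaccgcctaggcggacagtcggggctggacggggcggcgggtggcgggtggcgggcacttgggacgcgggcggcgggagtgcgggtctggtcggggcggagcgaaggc
Plk1: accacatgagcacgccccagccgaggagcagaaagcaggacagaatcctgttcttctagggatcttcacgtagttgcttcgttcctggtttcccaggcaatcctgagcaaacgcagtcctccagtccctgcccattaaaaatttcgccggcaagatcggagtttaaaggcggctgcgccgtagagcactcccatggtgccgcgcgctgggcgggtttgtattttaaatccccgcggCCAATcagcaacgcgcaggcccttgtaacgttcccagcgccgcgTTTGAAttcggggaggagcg
Cdk1: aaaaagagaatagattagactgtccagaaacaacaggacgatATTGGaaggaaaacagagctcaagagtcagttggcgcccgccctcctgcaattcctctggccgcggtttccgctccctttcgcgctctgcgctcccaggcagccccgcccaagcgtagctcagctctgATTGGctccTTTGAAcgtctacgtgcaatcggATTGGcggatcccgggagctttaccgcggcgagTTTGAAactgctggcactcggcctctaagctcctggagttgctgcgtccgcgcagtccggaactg
Kif11: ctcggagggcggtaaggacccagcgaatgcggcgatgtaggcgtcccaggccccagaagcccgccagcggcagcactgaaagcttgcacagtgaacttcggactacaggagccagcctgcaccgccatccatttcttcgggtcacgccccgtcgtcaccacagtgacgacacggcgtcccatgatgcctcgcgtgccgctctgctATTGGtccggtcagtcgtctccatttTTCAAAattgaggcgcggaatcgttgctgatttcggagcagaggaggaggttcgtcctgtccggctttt
The windows lie at chr9:70421505-70421804, minus strand (Ccnb2), chr7:135716330-135716629, minus strand (Mki67), chr7:122159185-122159484, plus strand (Plk1), chr10:69352863-69353162, minus strand (Cdk1) and chr19:37376132-37376431, plus strand (Kif11).

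The Ccnb2 window holds 3 CCAAT matches that begin 87, 54 and 21 bases before the start, followed by a TTTGAA at base 5 of the transcript. In Cdk1 a CHR match begins 15 bases before the start, with a CCAAT match on the opposite strand beginning 48 bases before it. In Kif11 both matches lie on the opposite strand, and begin 45 and 19 bases before the start. A gene with several windows counted as holding a match where any window did. A CHR match was present for 34 of the 43 members (79.1%), against 19.1% of the 15614 measured genes that had a promoter and 21.7% of all 27025 genes with one. A CCAAT match was present for 32 of 43 members (74.4%), against 41.7% and 41.1%. Both were present for 29 of 43 members (67.4%), against 7.69% and 8.61%. The members without a CHR match were Birc5, Cenpe, Cenpk, Kif18a, Mad2l1, Ncaph, Nek2, Nuf2 and Pttg1. Birc5, Kif18a, Mad2l1, Ncaph, Nuf2 and Pttg1 held neither. A match describes the letters of this window and was not tested as a binding site.

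Markers of blood cells and of other cells were read on all 12 arrays. The pan-leukocyte gene Ptprc lay between 10.01 and 10.92 and the myeloid factor gene Spi1 between 11.32 and 12.08. The B cell gene Cd79a lay between 4.40 and 4.88, the T cell gene Cd3e between 5.92 and 6.46 and Col1a1, a collagen gene of fibroblasts such as the producer line, between 6.999 and 7.74. Levels of different probe sets cannot be set against each other, so these values do not show which of these cells the arrays held. The score of the 10 fibroblast genes ran from −0.23 to 0.34, and array medians ran from 6.58 to 6.69. For a score, each gene's log2 values were centred on that gene's mean over the 12 arrays, and the centred values of a list were averaged on each array.

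The mitosis genes moved together from array to array, and the arrays of 1 construct lay far apart. Their score was 0.51, −0.17 and 0.13 on MIG replicates 1, 2 and 3, and −0.49, 0.37 and −0.48 on the CALM-AF10 arrays. It was −0.54, 0.27 and −0.20 on the ΔOM-LZ arrays and −0.01, 0.46 and 0.15 on the minimal fusion arrays. All 52 genes lay above their own 12-array mean on MIG replicate 1, CALM-AF10 replicate 2 and minimal fusion replicate 2, and 47 did so on ΔOM-LZ replicate 2. None of the 52 did so on CALM-AF10 replicates 1 and 3 and ΔOM-LZ replicate 1. By group the score was 0.16 (SD 0.34, n = 3) for MIG, −0.20 (SD 0.50) for CALM-AF10, −0.16 (SD 0.41) for ΔOM-LZ and 0.20 (SD 0.24) for the minimal fusion, so the groups overlapped.

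**Figure D1:**
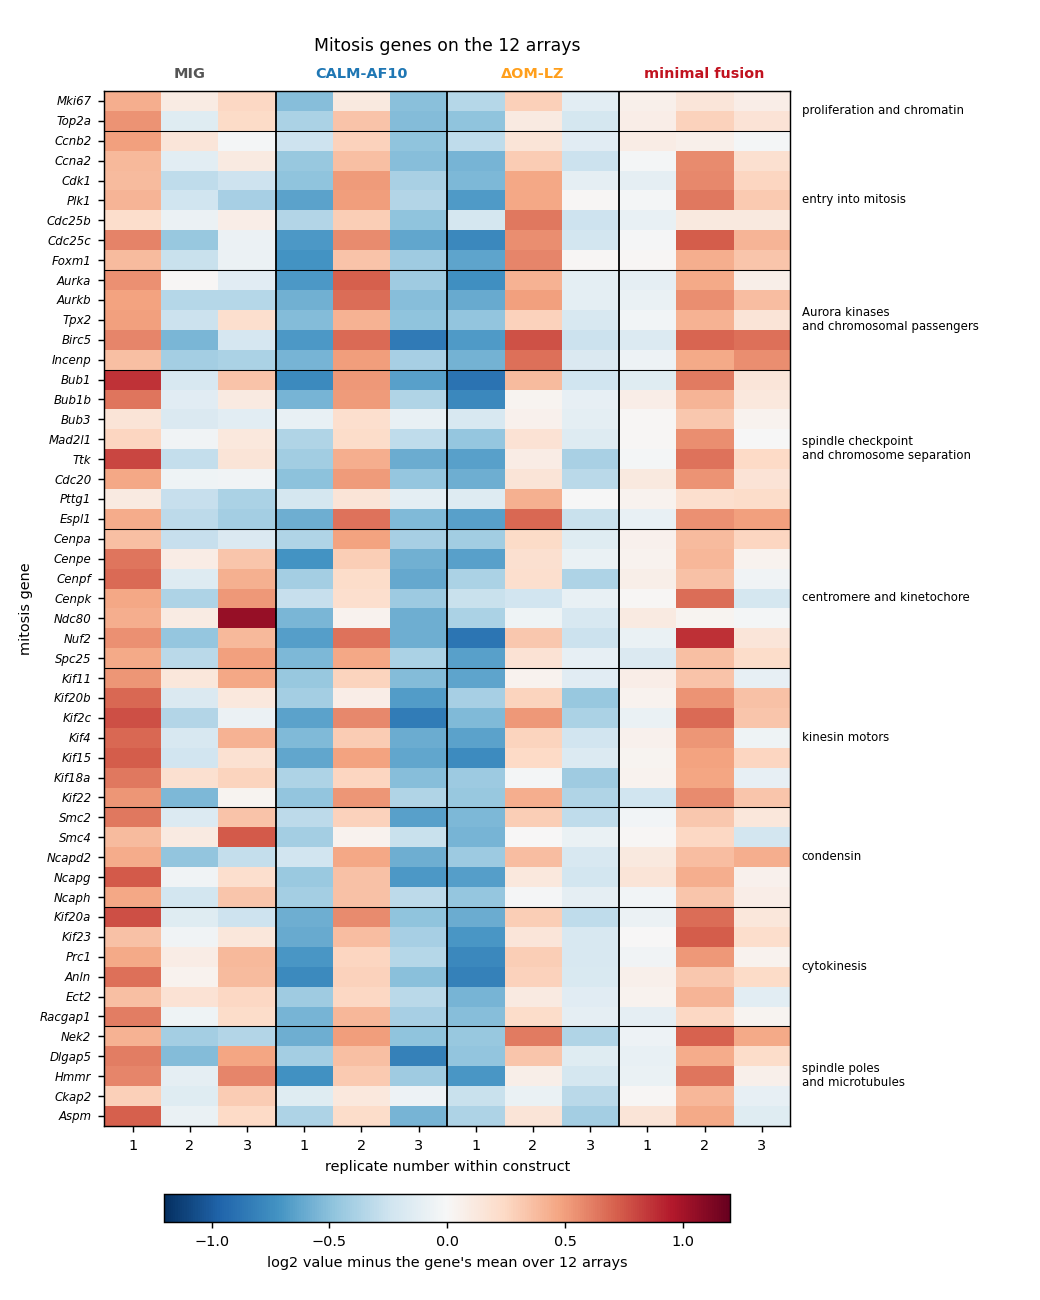
Heat map of the 52 mitosis genes (rows, grouped by role) on the 12 arrays (columns, by construct and replicate number), coloured by log2 value minus the gene's mean over the 12 arrays. Columns of 1 construct differ in colour: all 52 rows lie above their mean on CALM-AF10 replicate 2 and none on CALM-AF10 replicates 1 and 3.

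Within CALM-AF10, replicate 2 was the highest of the 3 arrays for 52 of 52 genes, where this held for 49.8% of all genes. It stood above the mean of the other two arrays by a median log2 value of 0.88, a 1.84-fold difference, against 0.07 for all genes. Within ΔOM-LZ, replicate 2 was the highest for 51 of 52 genes (48.5% of all genes) by a median of 0.61, and Cenpk was the exception. Within the minimal fusion, replicate 2 was the highest for 46 of 52 (27.0% of all genes) by 0.37. Within MIG it was replicate 1, for 46 of 52 genes (31.9% of all genes), by 0.54, and MIG replicate 2 was the lowest for 45 of 52. The SD of a member over the 12 arrays had a median of 0.42, exceeded by 8.03% of all genes, for which the median was 0.18. Of a member's variance a median of 27.6% lay between constructs, against 22.2% for all genes, of which 38.1% exceeded the members' median. A median of 14.1% lay between replicate numbers, against 16.6%, and 57.9% of all genes exceeded the members' median. With 3 arrays per construct such shares lie above 0 even where constructs do not differ, so they do not show a difference between constructs.

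Against MIG, the mitosis genes stood lower in CALM-AF10 and in ΔOM-LZ, and no gene passed the adjusted threshold of 0.05. In CALM-AF10 50 of 52 stood lower, by a median log2 difference of −0.36 (1.28-fold lower), and in ΔOM-LZ 46 of 52, by −0.38 (1.30-fold lower), where the median over all genes was 0.01 in both. These comparisons share the 3 MIG arrays. Same-numbered CALM-AF10 and ΔOM-LZ arrays also deviated together (r = 0.70 to 0.73 over probe sets), a pairing not stated in the labels. The lower values in CALM-AF10 and in ΔOM-LZ therefore cannot be read as independent results. In the minimal fusion 26 stood higher and 26 lower, with a median of 0.00. The minimal fusion stood above CALM-AF10 for 52 of 52 genes (median 0.41) and above ΔOM-LZ for 51 of 52 (median 0.36). The scores still overlapped, at −0.01 to 0.46 in the minimal fusion, −0.49 to 0.37 in CALM-AF10 and −0.54 to 0.27 in ΔOM-LZ. CALM-AF10 and ΔOM-LZ differed by a median of −0.03, with 20 genes higher and 32 lower. A p over the whole list was not computed, since the members vary together and were chosen with earlier results known.

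**Figure D2:**
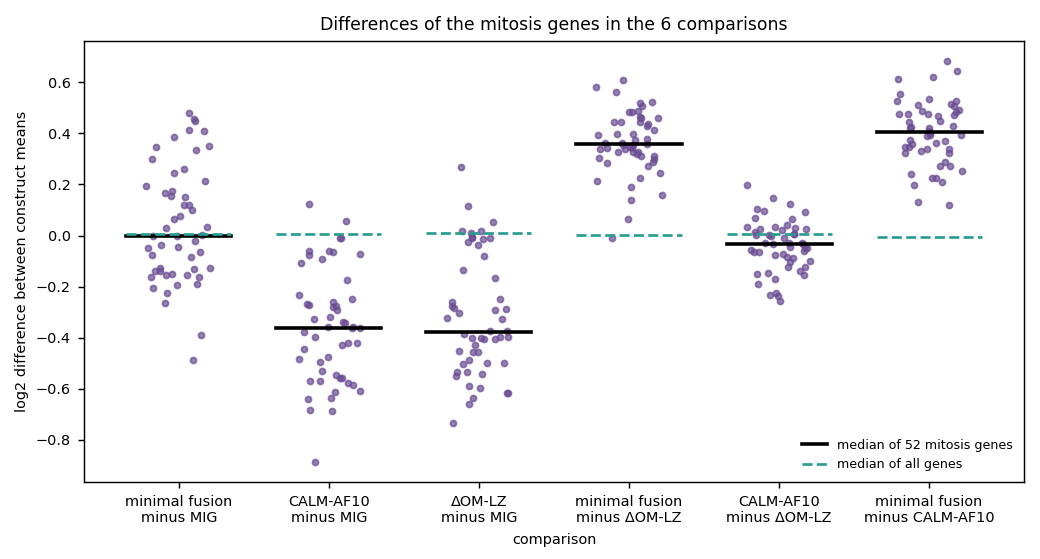
Log2 differences between construct means (vertical axis) of the 52 mitosis genes, 1 point a gene, in the 6 comparisons, with the members' median (black line) and the median of all 19938 genes (dashed line). The points lie mostly below 0 for CALM-AF10 and ΔOM-LZ against MIG (medians −0.36 and −0.38), and above 0 for the minimal fusion against CALM-AF10 (median 0.41).

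Tests were limma's moderated statistics on a model with 1 mean per construct over the 12 arrays, with p-values adjusted over the 23410 probe sets that carried a gene symbol. For CALM-AF10 against MIG limma called 0 of 52 members, against a background of 0% of all genes, and the lowest adjusted p was 0.63. At an unadjusted p under 0.05, 8 members were lower (1.65% of all genes were) and 0 higher (3.48% of all genes), and 2 members had non-overlapping groups with CALM-AF10 lower (3.27% of all genes). For ΔOM-LZ against MIG 0 members were called (0% of all genes), 5 were lower at an unadjusted p under 0.05 (2.39% of all genes) and 5 did not overlap, all lower (4.23% of all genes). For the minimal fusion against MIG 0 members were called (0.0401% of all genes), 0 had an unadjusted p under 0.05 (3.51% of all genes higher and 4.22% lower) and 0 had non-overlapping groups (6.15% of all genes higher and 6.21% lower). Against ΔOM-LZ the minimal fusion had 0 called (0.015% of all genes), 0 at an unadjusted p under 0.05 (1.74% of all genes higher and 2.61% lower) and 2 not overlapping, both higher (3.74% of all genes). Against CALM-AF10 it had 0 called (0.00502% of all genes) and 1 higher at an unadjusted p under 0.05 (0.582% of all genes). CALM-AF10 against ΔOM-LZ had 0 called (0% of all genes) and 0 at an unadjusted p under 0.05 (1.69% of all genes higher and 0.697% lower). Limma's F test over the 4 constructs together called 0 members (0.01% of all genes), with 3 at an unadjusted p under 0.05 (4.27% of all genes). With trend and robust variance limma also called 0 members in each of these tests.

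These medians moved with single arrays, and counts at an unadjusted p under 0.05 are given here with the share of all genes that passed in the same direction in the same fit. The members vary together, so a count of them is not a number of independent results. CALM-AF10 replicate 2 was the highest of its construct for 52 of 52 members, so leaving it out lowered the CALM-AF10 mean of every member. For CALM-AF10 against MIG the median was −0.67 without CALM-AF10 replicate 2, with 31 members lower (1.89% of all genes). Without CALM-AF10 replicate 1 it was −0.19 and without replicate 3 it was −0.22, each with 2 members lower (1.14% and 1.09% of all genes). Without MIG replicate 1 it was −0.19, with 2 members lower (2.23%), and without MIG replicate 2 it was −0.53, with 18 (2.09%). Without MIG replicate 3 it was −0.38, with 3 (1.26%). In these fits 0 members were higher. For ΔOM-LZ against MIG the median was −0.57 without ΔOM-LZ replicate 2, with 17 members lower (1.32% of all genes), and −0.19 without ΔOM-LZ replicate 1, with 2 (3.56%). It was −0.51 without MIG replicate 2, with 16 lower (3.24%), and −0.21 without MIG replicate 1, with 2 lower (399 of all 19938 genes) and 1 higher (403 of all). Without MIG replicate 3 the count was 2 lower (1.33%) and without CALM-AF10 replicate 2, which enters only through the pooled spread, it was 10 (2.33%). For the minimal fusion against CALM-AF10 the median was 0.69 without CALM-AF10 replicate 2, with 42 members higher (1.91% of all genes). It was 0.26 and 0.25 without CALM-AF10 replicates 1 and 3 and 0.28 without minimal fusion replicate 2, with 0 members higher in each (0.376%, 0.396% and 0.762%). Against ΔOM-LZ it was 0.57 without ΔOM-LZ replicate 2, with 10 members higher (2.36% of all genes). It was 0.16 without ΔOM-LZ replicate 1 and 0.23 without minimal fusion replicate 2, with 0 higher (1.49% and 1.11%). No member passed the adjusted threshold in any of these fits.

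The kinetochore genes, whose products tie chromosomes to spindle microtubules, held the member with the lowest p. Ndc80 stood at 8.52, 8.18 and 9.13 on the MIG arrays, 7.54, 8.13 and 7.50 on the CALM-AF10 arrays, 7.71, 8.03 and 7.89 on the ΔOM-LZ arrays and 8.19, 8.12 and 8.06 on the minimal fusion arrays, here and below in the order of replicates 1 to 3. Ndc80 encodes the microtubule-binding arm of the kinetochore. All 3 MIG arrays lay above all CALM-AF10 and ΔOM-LZ arrays, and MIG replicate 3 was the highest of the 12. Such a gap from MIG was present for 3.27% of all genes in CALM-AF10 and 4.23% in ΔOM-LZ. The difference from MIG was −0.89 (SE 0.23, 95% interval −1.39 to −0.39, limma adjusted p = 0.63) for CALM-AF10 and −0.73 (SE 0.23, 95% interval −1.24 to −0.23, limma adjusted p = 0.999) for ΔOM-LZ. The minimal fusion differed from MIG by −0.49 (SE 0.23, 95% interval −0.99 to 0.02, limma adjusted p = 0.67), with overlapping groups. Ndc80 also had the highest share of variance between constructs of any member (63.8%).

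Nuf2 and Spc25, partners of Ndc80 in the same complex, spread more within constructs. Nuf2 stood at 9.22, 8.21 and 9.06 on the MIG arrays, 8.01, 9.32 and 8.08 on the CALM-AF10 arrays, 7.80, 8.995 and 8.42 on the ΔOM-LZ arrays and 8.59, 9.55 and 8.81 on the minimal fusion arrays, a range over the 12 arrays of 1.75, the second widest of the members. CALM-AF10 replicate 2 and minimal fusion replicate 2 were above every other Nuf2 array, and the 4 groups overlapped. Nuf2 stood −0.36 from MIG in CALM-AF10, and Spc25 also −0.36. Cenpe stood at 9.84, 9.29 and 9.53 on the MIG arrays, 8.49, 9.50 and 8.63 on the CALM-AF10 arrays, 8.55, 9.39 and 9.12 on the ΔOM-LZ arrays and 9.24, 9.60 and 9.24 on the minimal fusion arrays. Cenpe, a kinesin that moves chromosomes to the spindle equator, differed from MIG by −0.68 (SE 0.28, 95% interval −1.31 to −0.06, limma adjusted p = 0.908) in CALM-AF10. Cenpf stood at 8.87, 8.03 and 8.61 on the MIG arrays, 7.78, 8.41 and 7.58 on the CALM-AF10 arrays, 7.81, 8.39 and 7.81 on the ΔOM-LZ arrays and 8.26, 8.54 and 8.15 on the minimal fusion arrays. Cenpf, a large kinetochore protein, differed by −0.58 (SE 0.26, 95% interval −1.16 to −0.01, limma adjusted p = 0.946), and for both genes CALM-AF10 replicate 2 overlapped the MIG arrays. Cenpa stood at 10.70, 10.07 and 10.17 on the MIG arrays, 9.98, 10.82 and 9.94 on the CALM-AF10 arrays, 9.92, 10.57 and 10.19 on the ΔOM-LZ arrays and 10.39, 10.72 and 10.60 on the minimal fusion arrays. Cenpa, the histone variant that marks centromeres, stood −0.06 from MIG in CALM-AF10, −0.08 in ΔOM-LZ and 0.26 in the minimal fusion, with overlap throughout. The 7 kinetochore genes had medians of −0.38, −0.43 and −0.08 against MIG in CALM-AF10, ΔOM-LZ and the minimal fusion, and all 7 stood lower in the first and second of these.

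**Figure D3:**
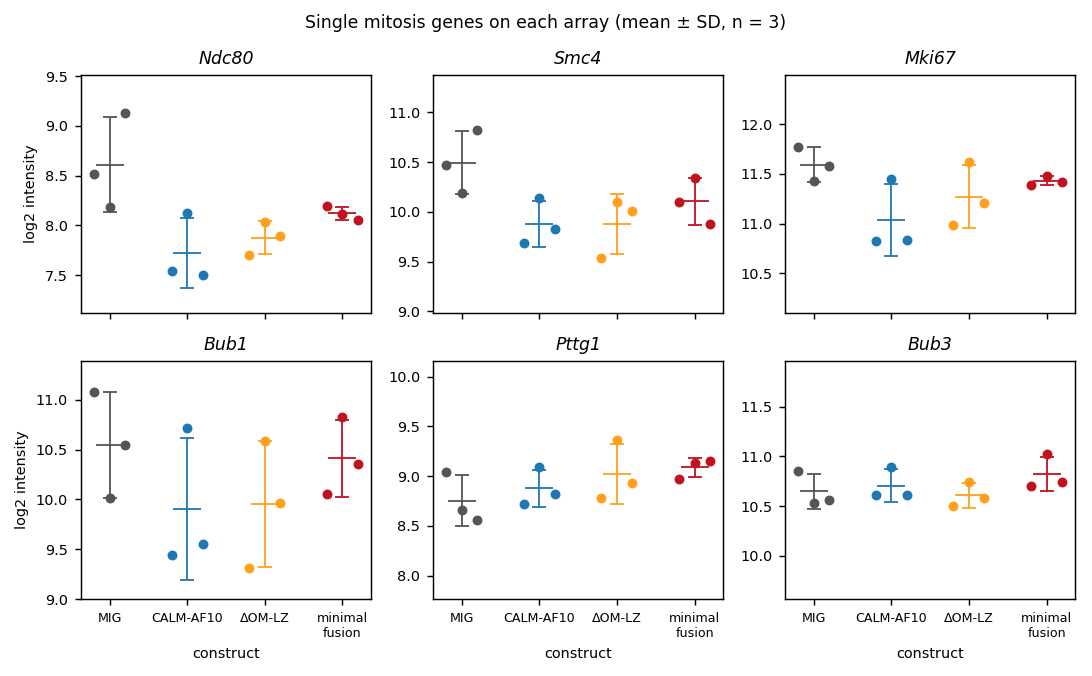
Log2 intensity (vertical axis, each panel spanning the same width) of 6 mitosis genes on every array (points, replicates 1 to 3 from left to right) by construct, with the mean and SD (bar and whiskers, n = 3). Ndc80 and Smc4 lie above the CALM-AF10 and ΔOM-LZ arrays on all 3 MIG arrays, Bub1 has the widest range of the 6 and Bub3 the narrowest. Of all genes, 3.27% lie wholly above CALM-AF10 in MIG and 4.23% wholly above ΔOM-LZ.

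Condensin, the ring complex that folds chromosomes for mitosis, gave the other member whose MIG arrays lay above both groups. Over all genes, MIG lay above all CALM-AF10 arrays for 3.27% and above all ΔOM-LZ arrays for 4.23%. Smc4 stood at 10.47, 10.19 and 10.83 on the MIG arrays, 9.68, 10.13 and 9.83 on the CALM-AF10 arrays, 9.53, 10.10 and 10.01 on the ΔOM-LZ arrays and 10.10, 10.34 and 9.87 on the minimal fusion arrays. Smc4, an ATPase arm of the ring, differed from MIG by −0.61 (SE 0.20, 95% interval −1.06 to −0.16, limma adjusted p = 0.812) in CALM-AF10 and −0.62 (SE 0.20, 95% interval −1.07 to −0.17, limma adjusted p = 0.999) in ΔOM-LZ. In the minimal fusion it differed by −0.39 (SE 0.20, 95% interval −0.84 to 0.06, limma adjusted p = 0.701). Smc2 stood at 10.42, 9.63 and 10.14 on the MIG arrays, 9.48, 10.07 and 9.14 on the CALM-AF10 arrays, 9.26, 10.09 and 9.49 on the ΔOM-LZ arrays and 9.76, 10.12 and 9.93 on the minimal fusion arrays. Smc2, the other arm, stood −0.50 and −0.45 from MIG in CALM-AF10 and ΔOM-LZ, with MIG replicate 2 inside the range of both groups. Ncapd2 stood at 10.45, 9.53 and 9.71 on the MIG arrays, 9.78, 10.47 and 9.42 on the CALM-AF10 arrays, 9.57, 10.37 and 9.82 on the ΔOM-LZ arrays and 10.12, 10.38 and 10.45 on the minimal fusion arrays. Ncapd2, a regulatory subunit of condensin I, lay close to MIG in CALM-AF10 and ΔOM-LZ: it differed by −0.01, 0.02 and 0.41 (SE 0.31, 95% interval −0.26 to 1.09, limma adjusted p = 0.803) in CALM-AF10, ΔOM-LZ and the minimal fusion. Ncapg and Ncaph, other condensin I subunits, stood −0.56 and −0.32 from MIG in CALM-AF10.

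The kinesins, motors that slide and shorten spindle microtubules, included 2 members whose ΔOM-LZ arrays all lay below MIG, as 4.23% of all genes did. Kif18a stood at 8.28, 7.84 and 7.91 on the MIG arrays, 7.28, 7.91 and 7.14 on the CALM-AF10 arrays, 7.21, 7.62 and 7.22 on the ΔOM-LZ arrays and 7.69, 8.12 and 7.55 on the minimal fusion arrays. Kif18a, which damps the swing of chromosomes at the equator, differed from MIG by −0.66 (SE 0.22, 95% interval −1.15 to −0.17, limma adjusted p = 0.999) in ΔOM-LZ and −0.57 (SE 0.22, 95% interval −1.06 to −0.08, limma adjusted p = 0.877) in CALM-AF10, where replicate 2 overlapped MIG. Kif11 stood at 11.43, 11.04 and 11.36 on the MIG arrays, 10.45, 11.17 and 10.39 on the CALM-AF10 arrays, 10.27, 10.94 and 10.77 on the ΔOM-LZ arrays and 10.98, 11.25 and 10.81 on the minimal fusion arrays. Kif11, the motor that pushes spindle poles apart, differed by −0.62 (SE 0.23, 95% interval −1.13 to −0.10, limma adjusted p = 0.999) in ΔOM-LZ and −0.61 (SE 0.23, 95% interval −1.13 to −0.10, limma adjusted p = 0.869) in CALM-AF10. Kif20b stood at 9.21, 8.34 and 8.64 on the MIG arrays, 8.11, 8.59 and 7.84 on the CALM-AF10 arrays, 8.12, 8.78 and 8.06 on the ΔOM-LZ arrays and 8.56, 9.06 and 8.87 on the minimal fusion arrays. Kif20b, a motor of late mitosis, had the lowest p of the members between the minimal fusion and CALM-AF10, at 0.65 (SE 0.27, 95% interval 0.05 to 1.25, limma adjusted p = 1) with overlapping groups. All 7 kinesins here stood lower than MIG in CALM-AF10 (median −0.55) and ΔOM-LZ (median −0.45), Kif22 least, at −0.11 and −0.13. In the minimal fusion 4 stood higher and 3 lower (median 0.03).

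Mki67, the standard marker of dividing cells, and Top2a, which untangles replicated DNA, followed the same arrays with SDs over the 12 of 0.31 and 0.34, below the members' median of 0.42. Mki67 stood at 11.77, 11.43 and 11.58 on the MIG arrays, 10.82, 11.45 and 10.84 on the CALM-AF10 arrays, 10.99, 11.62 and 11.21 on the ΔOM-LZ arrays and 11.39, 11.48 and 11.42 on the minimal fusion arrays. The minimal fusion arrays of Mki67 lay close together (SD 0.05), inside the MIG range or just below it, and CALM-AF10 replicates 1 and 3 were the lowest of the 12. Mki67 differed from MIG by −0.56 (SE 0.19, 95% interval −0.98 to −0.13, limma adjusted p = 0.833) in CALM-AF10, by −0.32 in ΔOM-LZ and by −0.16 in the minimal fusion. It differed between CALM-AF10 and ΔOM-LZ by −0.23 (SE 0.19, 95% interval −0.66 to 0.19, limma adjusted p = 1) and between the minimal fusion and CALM-AF10 by 0.39 (SE 0.19, 95% interval −0.03 to 0.82, limma adjusted p = 1). Top2a stood at 11.28, 10.60 and 10.97 on the MIG arrays, 10.36, 11.09 and 10.22 on the CALM-AF10 arrays, 10.27, 10.85 and 10.54 on the ΔOM-LZ arrays and 10.82, 11.02 and 10.90 on the minimal fusion arrays. Top2a stood −0.40 from MIG in CALM-AF10 and −0.40 in ΔOM-LZ, with overlap.

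Genes of entry into mitosis lay near MIG in CALM-AF10 and ΔOM-LZ for some members and lower for others. Cdk1 stood at 11.36, 10.67 and 10.72 on the MIG arrays, 10.49, 11.48 and 10.58 on the CALM-AF10 arrays, 10.43, 11.44 and 10.86 on the ΔOM-LZ arrays and 10.86, 11.54 and 11.23 on the minimal fusion arrays. Cdk1, the kinase that drives mitosis, differed from MIG by −0.07 (SE 0.32, 95% interval −0.78 to 0.65, limma adjusted p = 1) in CALM-AF10, −0.01 in ΔOM-LZ and 0.30 (SE 0.32, 95% interval −0.42 to 1.01, limma adjusted p = 0.872) in the minimal fusion. Its 4 highest arrays came 1 from each construct: MIG replicate 1 and replicate 2 of the other 3. Plk1 stood at 11.39, 10.73 and 10.58 on the MIG arrays, 10.33, 11.47 and 10.62 on the CALM-AF10 arrays, 10.30, 11.43 and 10.99 on the ΔOM-LZ arrays and 10.95, 11.61 and 11.29 on the minimal fusion arrays. Plk1, the Polo kinase, had the same 4 highest arrays and stood −0.09, 0.01 and 0.39 from MIG in CALM-AF10, ΔOM-LZ and the minimal fusion. Foxm1 stood at 9.34, 8.69 and 8.89 on the MIG arrays, 8.25, 9.31 and 8.54 on the CALM-AF10 arrays, 8.33, 9.55 and 8.98 on the ΔOM-LZ arrays and 8.98, 9.40 and 9.29 on the minimal fusion arrays. Foxm1, the transcription factor of the G2 program, stood −0.28, −0.02 and 0.25. Cdc25b stood at 8.56, 8.28 and 8.44 on the MIG arrays, 8.01, 8.65 and 7.88 on the CALM-AF10 arrays, 8.14, 8.99 and 8.11 on the ΔOM-LZ arrays and 8.27, 8.47 and 8.48 on the minimal fusion arrays. Cdc25b, a phosphatase that switches Cdk1 on, was the 1 member not higher in the minimal fusion than in ΔOM-LZ, at −0.01 (SE 0.25, 95% interval −0.55 to 0.53, limma adjusted p = 0.999), and stood −0.24 (SE 0.25, 95% interval −0.78 to 0.31, limma adjusted p = 1) between CALM-AF10 and ΔOM-LZ. The cyclin genes Ccna2 and Ccnb2 stood −0.33 and −0.36 from MIG in CALM-AF10. Over the 7 genes measured here the medians against MIG were −0.27, −0.02 and 0.25 in CALM-AF10, ΔOM-LZ and the minimal fusion, none of them tested.

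The Aurora kinases and the chromosomal passengers, which correct faulty attachments and mark the cleavage plane, included members near MIG in CALM-AF10 and ΔOM-LZ. Aurkb stood at 11.42, 10.60 and 10.60 on the MIG arrays, 10.36, 11.61 and 10.43 on the CALM-AF10 arrays, 10.33, 11.43 and 10.82 on the ΔOM-LZ arrays and 10.86, 11.49 and 11.30 on the minimal fusion arrays. Aurkb, the passenger kinase, stood −0.08 and −0.01 from MIG in CALM-AF10 and ΔOM-LZ and 0.35 in the minimal fusion, with wide overlap. Birc5 stood at 9.27, 8.14 and 8.49 on the MIG arrays, 7.996, 9.36 and 7.83 on the CALM-AF10 arrays, 7.999, 9.44 and 8.42 on the ΔOM-LZ arrays and 8.52, 9.38 and 9.34 on the minimal fusion arrays. Birc5, the passenger survivin, had the largest SD over the 12 arrays of any member (0.63) and stood 0.68 higher in the minimal fusion than in CALM-AF10, with overlap at CALM-AF10 replicate 2. Incenp stood at 9.46, 8.69 and 8.72 on the MIG arrays, 8.54, 9.60 and 8.70 on the CALM-AF10 arrays, 8.53, 9.76 and 8.93 on the ΔOM-LZ arrays and 9.03, 9.55 and 9.65 on the minimal fusion arrays. Incenp, the scaffold of the complex, differed from MIG by 0.11 (SE 0.36, 95% interval −0.68 to 0.91, limma adjusted p = 0.999) in ΔOM-LZ and −0.01 in CALM-AF10. Aurka stood at 10.20, 9.67 and 9.52 on the MIG arrays, 8.96, 10.37 and 9.23 on the CALM-AF10 arrays, 8.92, 10.07 and 9.53 on the ΔOM-LZ arrays and 9.55, 10.11 and 9.73 on the minimal fusion arrays. Aurka, the spindle pole kinase, was the member with the lowest statistic between the minimal fusion and CALM-AF10, at 0.27 (SE 0.37, 95% interval −0.55 to 1.10, limma adjusted p = 1). Tpx2, which activates Aurka, stood −0.34 and −0.28 from MIG in CALM-AF10 and ΔOM-LZ.

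The spindle checkpoint held both the widest and the narrowest member. Bub1 stood at 11.08, 10.01 and 10.55 on the MIG arrays, 9.44, 10.72 and 9.56 on the CALM-AF10 arrays, 9.32, 10.58 and 9.96 on the ΔOM-LZ arrays and 10.06, 10.83 and 10.35 on the minimal fusion arrays. Bub1, a checkpoint kinase, ranged over 1.76, a 3.39-fold span, with MIG replicate 1 highest and ΔOM-LZ replicate 1 lowest, and the groups overlapped. It differed from MIG by −0.64 (SE 0.41, 95% interval −1.55 to 0.27, limma adjusted p = 1) in CALM-AF10, an interval that includes 0. Bub3 stood at 10.85, 10.53 and 10.57 on the MIG arrays, 10.61, 10.90 and 10.61 on the CALM-AF10 arrays, 10.50, 10.75 and 10.58 on the ΔOM-LZ arrays and 10.71, 11.02 and 10.74 on the minimal fusion arrays. Bub3, a checkpoint scaffold that also works outside mitosis, ranged over 0.52, the least of the members, and differed from MIG by 0.06 (SE 0.13, 95% interval −0.24 to 0.35, limma adjusted p = 1) in CALM-AF10 and between CALM-AF10 and ΔOM-LZ by 0.10 (SE 0.13, 95% interval −0.20 to 0.39, limma adjusted p = 1). Pttg1 stood at 9.04, 8.66 and 8.56 on the MIG arrays, 8.72, 9.09 and 8.82 on the CALM-AF10 arrays, 8.78, 9.36 and 8.93 on the ΔOM-LZ arrays and 8.97, 9.14 and 9.15 on the minimal fusion arrays. Pttg1, or securin, which guards the cohesin-cutting protease, was the member with the highest statistic in each comparison against MIG: 0.33 (SE 0.17, 95% interval −0.05 to 0.71, limma adjusted p = 0.698) in the minimal fusion, 0.27 in ΔOM-LZ and 0.12 in CALM-AF10. MIG replicates 2 and 3 were the 2 lowest Pttg1 arrays and MIG replicate 1 lay among the others. It differed between the minimal fusion and ΔOM-LZ by 0.06 (SE 0.17, 95% interval −0.32 to 0.44, limma adjusted p = 0.999). Bub1b, the BubR1 kinase, did not overlap between the minimal fusion and ΔOM-LZ, as 3.74% of all genes did with the minimal fusion higher. Its difference was 0.48 (SE 0.30, 95% interval −0.18 to 1.15, limma adjusted p = 0.999). Ttk, the kinase that starts the checkpoint, and Cdc20, the activator it restrains, stood −0.42 and −0.27 from MIG in CALM-AF10. Mad2l1 and the protease gene Espl1 stood −0.26 and −0.06.

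Genes of cytokinesis, the cutting of the cell, and of the spindle poles stood lower than MIG in CALM-AF10 for most members. Anln stood at 10.25, 9.63 and 9.97 on the MIG arrays, 8.83, 9.87 and 9.09 on the CALM-AF10 arrays, 8.78, 9.87 and 9.42 on the ΔOM-LZ arrays and 9.65, 9.92 and 9.83 on the minimal fusion arrays. Anln, the scaffold of the contractile ring, differed from MIG by −0.69 (SE 0.30, 95% interval −1.35 to −0.02, limma adjusted p = 0.921) in CALM-AF10, where replicate 2 lay within the MIG range. Kif23 stood at 10.14, 9.76 and 9.94 on the MIG arrays, 9.19, 10.16 and 9.40 on the CALM-AF10 arrays, 9.10, 9.95 and 9.60 on the ΔOM-LZ arrays and 9.80, 10.53 and 10.01 on the minimal fusion arrays. Kif23, a motor of the central spindle, stood 0.56 (SE 0.29, 95% interval −0.07 to 1.19, limma adjusted p = 0.999) higher in the minimal fusion than in ΔOM-LZ, with overlap. Ect2, which switches on the ring, did not overlap between ΔOM-LZ and MIG, as 4.23% of all genes did with ΔOM-LZ lower. Its difference was −0.46 (SE 0.21, 95% interval −0.93 to 0.01, limma adjusted p = 0.999). All 6 cytokinesis genes stood lower than MIG in CALM-AF10 (median −0.44) and ΔOM-LZ (median −0.43), among them Prc1, the microtubule bundler of the midzone, at −0.57 and −0.54. Ckap2 stood at 8.11, 7.69 and 8.13 on the MIG arrays, 7.69, 7.95 and 7.77 on the CALM-AF10 arrays, 7.56, 7.75 and 7.51 on the ΔOM-LZ arrays and 7.85, 8.22 and 7.73 on the minimal fusion arrays. Ckap2, a spindle microtubule protein, had the second narrowest range (0.72). It differed from MIG by −0.37 (SE 0.16, 95% interval −0.72 to −0.02, limma adjusted p = 0.999) in ΔOM-LZ, and in the minimal fusion from ΔOM-LZ by 0.33 (SE 0.16, 95% interval −0.02 to 0.68, limma adjusted p = 0.999). CALM-AF10 differed from ΔOM-LZ in Ckap2 by 0.20 (SE 0.16, 95% interval −0.15 to 0.55, limma adjusted p = 1) and the minimal fusion from CALM-AF10 by 0.13 (SE 0.16, 95% interval −0.22 to 0.48, limma adjusted p = 1). Of the other pole genes, Hmmr and Aspm stood −0.64 and −0.53 from MIG in CALM-AF10 and Nek2 −0.07.

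The roles gave unequal counts on MIG replicate 3. On that array 6 of 7 kinetochore genes, 6 of 7 kinesins, 5 of 6 cytokinesis genes, 4 of 5 condensin genes, 4 of 5 spindle pole genes and both Mki67 and Top2a lay above their own 12-array mean. Of the entry genes 2 of 7 did so (Ccna2 and Cdc25b), of the Aurora and passenger genes 1 of 5 (Tpx2), and of the checkpoint and separation genes 4 of 8. The kinetochore score on that array was 0.43 and the Aurora and passenger score −0.17. On MIG replicate 1 all 52 genes were above their mean, and the same scores were 0.51 and 0.49. These differences between roles were not tested.

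Most of the other mitotic genes outside the 53 stood lower than MIG in CALM-AF10 and ΔOM-LZ and higher in the minimal fusion. The list held 81 further genes, among them genes of the spindle, kinetochore, condensin, cohesin, anaphase-promoting complex and cell cycle kinases and phosphatases. Of these 81 genes 80 were measured, and limma called 0 in any comparison. Against MIG 55 stood lower in CALM-AF10 (median −0.16) and 67 in ΔOM-LZ (median −0.17), with 6 and 3 lower at an unadjusted p under 0.05 (1.65% and 2.39% of all genes) and 0 higher in both (3.48% and 1.47%). In the minimal fusion 57 stood higher and 23 lower (median 0.12), with 0 at an unadjusted p under 0.05 (3.51% of all genes higher and 4.22% lower). Among them Knl1, the kinetochore scaffold, differed by −0.65 in CALM-AF10 (SE 0.24, adjusted p = 0.838), and Fbxo5, an inhibitor of the anaphase-promoting complex, by −0.61 (SE 0.22, adjusted p = 0.833) in CALM-AF10 and −0.67 (SE 0.22, adjusted p = 0.999) in ΔOM-LZ. Cdc25a, a phosphatase that acts from G1 onward, differed by 0.31 in CALM-AF10 and 0.51 in the minimal fusion, and Cenpt, an inner kinetochore protein, by 0.30 and 0.36.

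DNA replication genes parted from the mitosis genes on single arrays. Their score over 40 genes was 0.45, −0.36 and −0.23 on the MIG arrays, −0.14, 0.43 and −0.52 on the CALM-AF10 arrays, −0.30, 0.22 and −0.22 on the ΔOM-LZ arrays and −0.04, 0.49 and 0.22 on the minimal fusion arrays. On MIG replicate 3 the replication genes were low (5 of 40 above their mean) where 34 of 52 mitosis genes were high. Against MIG the replication genes had medians of 0.27 in the minimal fusion, −0.03 in CALM-AF10 and −0.05 in ΔOM-LZ, with 0 called by limma. At an unadjusted p under 0.05 there were 0 in the minimal fusion (3.51% of all genes higher and 4.22% lower) and 0 in CALM-AF10 (3.48% and 1.65%). In ΔOM-LZ 0 were higher (1.47% of all genes) and 1 lower (2.39%), Orc6, an origin-binding subunit, at −0.52 (limma adjusted p = 0.999). The difference between the replication and mitosis lists was not tested.

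Scores of other cell states and cell types also differed between arrays of 1 construct. The p53 target genes, 19 measured, scored −0.11, 0.13 and 0.22 on MIG replicates 1 to 3, 0.25, −0.32 and 0.34 in CALM-AF10, 0.38, −0.25 and 0.10 in ΔOM-LZ and −0.14, −0.26 and −0.34 in the minimal fusion, so within MIG, CALM-AF10 and ΔOM-LZ the array highest in mitosis genes was the lowest in p53 targets, and within the minimal fusion replicate 2 was highest in mitosis genes and replicate 3 lowest in p53 targets. Primary granule genes of neutrophil precursors (5 of 5 measured) ran from −0.42 to 0.51 in MIG, −1.09 to 0.76 in CALM-AF10, −1.48 to 0.78 in ΔOM-LZ and −0.34 to 0.73 in the minimal fusion, and CALM-AF10 replicate 1 and ΔOM-LZ replicate 1 were lowest. Mast cell and basophil genes (10 of 10) ran from −0.40 to 1.87, −0.80 to 1.03, −0.13 to 1.55 and −1.37 to −0.42 in the same order, and megakaryocyte genes (7 of 10) from −0.17 to 1.15, −0.63 to 0.08, −0.46 to 0.999 and −0.88 to −0.34. Late neutrophil genes (10 of 10) ran from −0.47 to 0.50, −0.57 to 0.21, 0.10 to 0.86 and −0.85 to −0.30, and monocyte and macrophage genes (8 of 10) from −0.51 to 1.17, −0.32 to 0.21, −0.07 to 1.18 and −0.72 to −0.53. Stem and progenitor genes (9 of 10) ran from −0.28 to 0.06, −0.24 to 0.41, −0.64 to 0.00 and 0.24 to 0.42. Erythroid genes (7 of 10) lay between −0.22 and 0.47, and B cell (6 of 7) and T and NK cell genes (6 of 7) between −0.14 and 0.17. The part of these cells in the mitosis values was not tested.

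**Figure D4:**
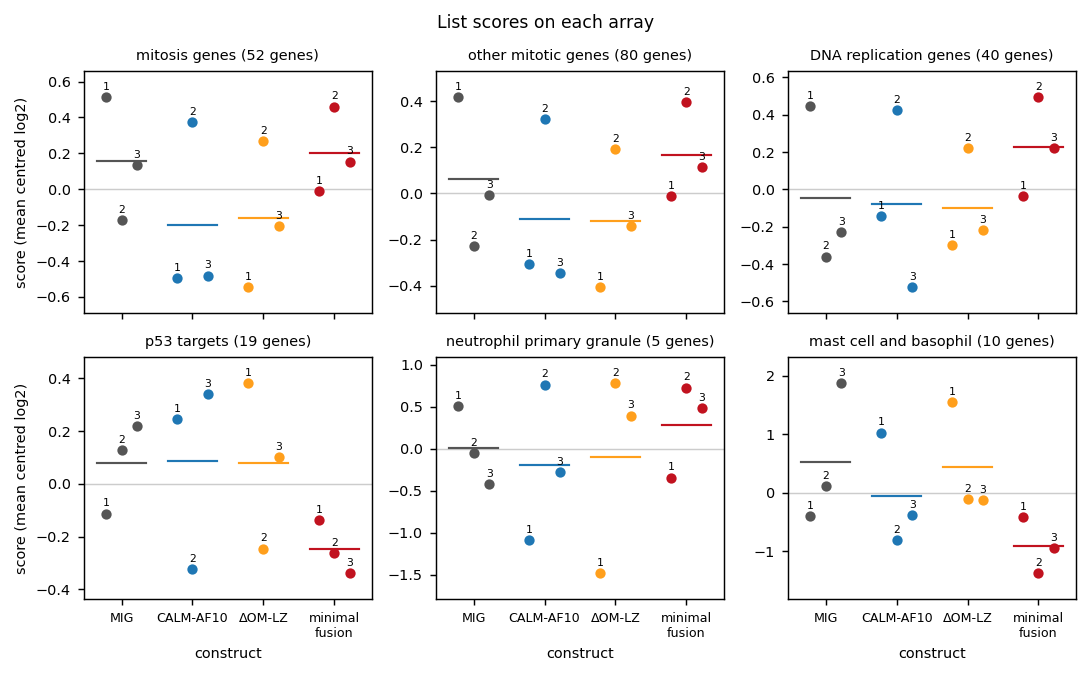
Scores (vertical axis, centred log2 values averaged over the genes of a list) of 6 gene lists on every array, by construct; points carry the replicate number and lines are means of 3 arrays. CALM-AF10 replicate 2, at 0.37, stands apart from replicates 1 and 3, at −0.49 and −0.48, in the mitosis genes, and lies lowest of its construct in p53 targets, at −0.32.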

How the data were processed

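The authors deposited log2 intensities of Affymetrix probe sets. Per the submitters' processing notes they used Expression Console; its version and the normalization were not stated there. Values from 2.88 to 14.27 gave the scale as log2. Nothing was renormalized. Of 35556 probe sets 23410 carried a gene symbol and entered the fit by limma 3.58.1 under R 4.3.3 (lmFit, eBayes; two-sided; Benjamini-Hochberg over the 23410; 8 residual degrees of freedom); the script was tested on simulated data. Background percentages count the brightest single-symbol probe set of 19938 genes. Arrays carry no depth; 3 per construct limits precision, and p-values measure the spread between these arrays. The members, lists and tests were chosen with earlier results of these data known. Every member could be named; full statistics were given for the 2 highest and 2 lowest moderated statistics of a comparison and for an unadjusted p under 0.05, and per-array values for these, for the widest and narrowest members and for 11 fixed genes. Bub1b and Ect2 were added after their values were seen. Full statistics for Cdk1 and Bub1 against MIG were also given outside this rule. Alternatives were variance trend, median centring, quantile normalization, 2-group fits, all or only bright probe sets, mean probe sets, a replicate block and leaving out each array. Same-numbered arrays deviated together between CALM-AF10 and ΔOM-LZ (r = 0.70 to 0.73 over probe sets in all 3 pairs), a pairing seen in the data and not stated in the labels. For no other pair of constructs did all 3 exceed 0.1, though single pairs did. In replicates 1 to 3 the minimal fusion had r of 0.72, 0.39 and −0.20 with CALM-AF10 and 0.62, 0.07 and −0.07 with ΔOM-LZ. With MIG, r ran from −0.60 to 0.15 over the fusions.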

Additional observations from a re-analysis of the deposited data

How the results depend on the processing

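Under all alternatives run, including each left-out array, limma called 0 of the 52 mitosis genes in each of the 6 comparisons and in the F test, with a lowest adjusted p of 0.294. That value came from a paired fit of CALM-AF10 and ΔOM-LZ alone with a replicate block, chosen after seeing the data, which had 1 member higher and 3 lower at an unadjusted p under 0.05 (10.2% and 4.41% of all genes) and called 0 members and 1 of all genes. With the replicate number as a block over all arrays the count was also 0 in every comparison, and the block changed no call of a member. The members' median kept its sign in 4 comparisons. It crossed 0, farthest without single arrays, for the minimal fusion against MIG (−0.18 to 0.20) and CALM-AF10 against ΔOM-LZ (−0.32 to 0.18), by less than the SD between arrays. Medians ran from −0.67 to −0.19 for CALM-AF10 against MIG, −0.57 to −0.19 for ΔOM-LZ against MIG, 0.16 to 0.57 for the minimal fusion against ΔOM-LZ and 0.25 to 0.69 against CALM-AF10, all of these without 1 array. Of 664 values for 33 named gene results, 12 changed sign, all without 1 array and none past the threshold. These results ranged from −0.039 to 0.16 (Bub3, CALM-AF10 against MIG), −0.00026 to 0.16 (Bub3, CALM-AF10 against ΔOM-LZ), −0.23 to 0.39 (Incenp, ΔOM-LZ against MIG), −0.0054 to 0.70 (Aurka) and −0.014 to 0.23 (Ckap2, both the minimal fusion against CALM-AF10), −0.059 to 0.23 (Pttg1) and −0.16 to 0.28 (Cdc25b, both against ΔOM-LZ) and −0.47 to 0.051 (Cdc25b, CALM-AF10 against ΔOM-LZ). Over all genes the count called for the minimal fusion was 8 against MIG (0 to 11 under alternatives), 3 against ΔOM-LZ (0 to 7) and 1 against CALM-AF10 (0 to 1); ΔOM-LZ against MIG had 0 (up to 4), and CALM-AF10 against MIG and against ΔOM-LZ had 0 (up to 1). The cause of these changes was not tested.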

Other observations

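Among regulators of the cell cycle outside mitosis, 31 of 33 listed genes were measured and limma called 0 in any comparison. In limma's F test over the 4 constructs 2 of them had an unadjusted p under 0.05 (4.27% of all genes). Ccnd1, the cyclin that carries growth signals into G1, came nearest. Ccnd1 stood at 6.48, 6.73 and 6.45 on the MIG arrays, 6.77, 6.63 and 6.63 on the CALM-AF10 arrays, 6.72, 6.72 and 6.70 on the ΔOM-LZ arrays and 7.13, 7.24 and 7.23 on the minimal fusion arrays. All 3 minimal fusion arrays lay above the other 9, and the difference was 0.65 against MIG (SE 0.09, limma adjusted p = 0.0594), 0.48 against ΔOM-LZ (adjusted p = 0.331) and 0.52 against CALM-AF10 (adjusted p = 0.608). Of all genes, 6.15% lay wholly above MIG in the minimal fusion and 3.74% wholly above ΔOM-LZ. The share above all 9 other arrays was not counted. Cdk4, its kinase, stood 0.26 higher than MIG in the minimal fusion (adjusted p = 0.573) and 0.24 higher in CALM-AF10 (adjusted p = 0.885). Rb1, the brake that cyclin D and Cdk4 release, stood −1.01 from MIG in the minimal fusion (SE 0.37, adjusted p = 0.568). Myc, a driver of growth, stood 0.35 higher in CALM-AF10 than in ΔOM-LZ (SE 0.12, adjusted p = 1).

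Top2a had a second probe set, which lay between 3.60 and 4.68 over the 12 arrays and stood 0.24 from MIG in CALM-AF10 where the brighter one stood −0.40. The lowest value on any array was 2.88 and array medians ran from 6.58 to 6.69. The second probe set thus lay near the floor, and its difference is not read as a result for Top2a.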
